A study of Homo sapiens with 4 samples.

Results

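The genes examined were 10 genes of the actin cytoskeleton among the 23228 gene symbols counted in ES2 cells, an established human ovarian cancer cell line. They are the actins ACTB and ACTG1, the beta thymosins TMSB10 and TMSB4X, the actin regulators PFN1 and CFL1, and the filament-binding or motor genes TAGLN, TAGLN2, TPM1 and MYL9. The set was chosen by the measured EC359 against vehicle change of TMSB10, which was clearly lower, so the EC359 values of the members are given here as a description and no p is given for a member. RNA was taken after 12 h with EC359 at 10 nM, an inhibitor of the leukemia inhibitory factor receptor (LIFR), or with vehicle (0.1% DMSO). Each treatment had 2 libraries, all from the same line, grown in RPMI with serum. Raw counts per gene were deposited, and normalized counts are these counts scaled to the mean library size with TMM factors. Of the 10 members, 8 had enough counts to be tested, and TAGLN and MYL9 did not.

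Actin exists as monomers (G-actin) and as filaments that grow from monomers. Beta thymosins bind monomers and hold them out of filaments, profilin delivers monomers to growing ends, and cofilin severs and disassembles filaments. Tropomyosin and the transgelins bind along filaments, and MYL9 is a regulatory light chain of myosin II. Monomeric actin also holds the myocardin-related cofactors (MRTFs) of serum response factor (SRF) in the cytoplasm, and genes of the actin cytoskeleton are among the best known targets of SRF.

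Libraries held 25572494 to 31707553 reads counted on genes, and the 10 members took 0.902% to 1.03% of them. Libraries of the same treatment were further apart than counting error alone gives (chi-square per degree of freedom 3.78 for vehicle and 2.69 for EC359), and each was counted as 1 replicate. Of 7 epithelial markers, 3 had at least 10 counts in all libraries. These were KRT8 and KRT18, at 556 to 770 and 6304 to 8773 counts, and PAX8 at 24 to 41. KRT19 had 5 to 23 counts. EPCAM and CDH1 had at most 2 counts in a library, and MUC16 had 0. The mesenchymal markers VIM, CDH2 and FN1 were abundant, with a summed level of 7770 and 8029 CPM (counts scaled to a library of fixed size) with vehicle and 7243 and 7332 with EC359. Of 5 blood cell markers, 3 were at 0 in all libraries and their summed level was at most 0.118 CPM. For 4 markers of differentiated muscle the sum was at most 0.282 CPM, and the endothelial marker CDH5 had 3118 to 3920 counts while PECAM1 and VWF had at most 2.

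TMSB10 and TMSB4X encode the same short kind of protein, and their coding sequences are shown because the counts of the 2 genes rest on how far 50-base reads can tell them from other places. Both are written 5′ to 3′ from the canonical transcript, without the stop codon, on build GRCh37, the assembly that UCSC names hg19. Capitals mark bases that differ between the 2 genes. The coding sequence of TMSB10 lies within chr2:85133142-85133544 on the plus strand, and that of TMSB4X within chrX:12994381-12994927 on the plus strand, each split over 2 coding exons.
TMSB10: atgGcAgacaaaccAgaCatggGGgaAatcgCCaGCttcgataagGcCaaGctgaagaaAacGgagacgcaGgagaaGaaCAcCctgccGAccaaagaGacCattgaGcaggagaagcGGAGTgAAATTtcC
TMSB4X: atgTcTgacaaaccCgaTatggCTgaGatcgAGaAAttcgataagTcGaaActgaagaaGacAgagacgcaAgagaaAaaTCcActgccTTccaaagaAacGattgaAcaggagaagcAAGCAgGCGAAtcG
The sequences have 132 bases, or 44 codons, and differ at 37 bases in 25 codons. They are 72.0% identical, the longest identical run is 10 bases, and 0 windows of 50 bases are the same in both. A read of one thymosin therefore has no exact match in the coding sequence of the other. Elsewhere in the genome the genes differ. Of the 412 windows of 50 bases in the TMSB10 transcript, 10 (2.43%) also occur at another place, all in the pseudogene TMSB10P1. For TMSB4X, 427 of 573 windows (74.5%) occur elsewhere, at 9 places, among them 46.8% within the gene CCSER1 on chromosome 4 and 13.3% in the pseudogene TMSB4XP4. Reads with several alignments were kept apart from the gene counts in the deposited files, so reads from these shared windows could be missing from the TMSB4X count.

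The actin genes ACTB and ACTG1 have coding sequences of 1125 bases that differ at 98 bases and are 91.3% identical, with 10 identical windows of 50 bases. Of the 98 differences, 93 are at the third base of a codon. The first 60 bases are shown, since they hold the start of the protein where the 2 actins are known to differ. Capitals again mark differences, 10 in this stretch. The coding sequence of ACTB lies within chr7:5567382-5569288 and that of ACTG1 within chr17:79477719-79479380 of GRCh37, both on the minus strand.
ACTB: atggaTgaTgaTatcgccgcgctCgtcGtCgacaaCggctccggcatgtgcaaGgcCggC
ACTG1: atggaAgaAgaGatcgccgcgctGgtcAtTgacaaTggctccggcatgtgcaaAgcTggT
Of their transcripts' windows, 19.1% for ACTB and 8.24% for ACTG1 occur elsewhere in the genome. The shares were 16.8% for PFN1, 0.585% for CFL1, 21.6% for TAGLN2 and 34.6% for TAGLN, and 0 windows of TPM1 or MYL9 had a further place.

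In vehicle libraries the order of the members' levels was set by length as well as by counts. Per kilobase of all annotated exons, TMSB10 had the highest level, with 2242 and 2204 CPM per kilobase. ACTB followed with 674 and 713, and ACTG1 with 669 and 702. The 2 actins did not separate, since the ranges of their libraries overlapped. PFN1 had 453 and 488, TAGLN2 309 and 310.5, and CFL1 245 and 264. TMSB4X stood far lower, with 42.03 and 40.97, and TPM1 had 20.3 in both libraries. TAGLN, with 0.0481 and 0.0361, and MYL9, with 0.0281 and 0.0562, overlapped each other.

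**Figure D1:**
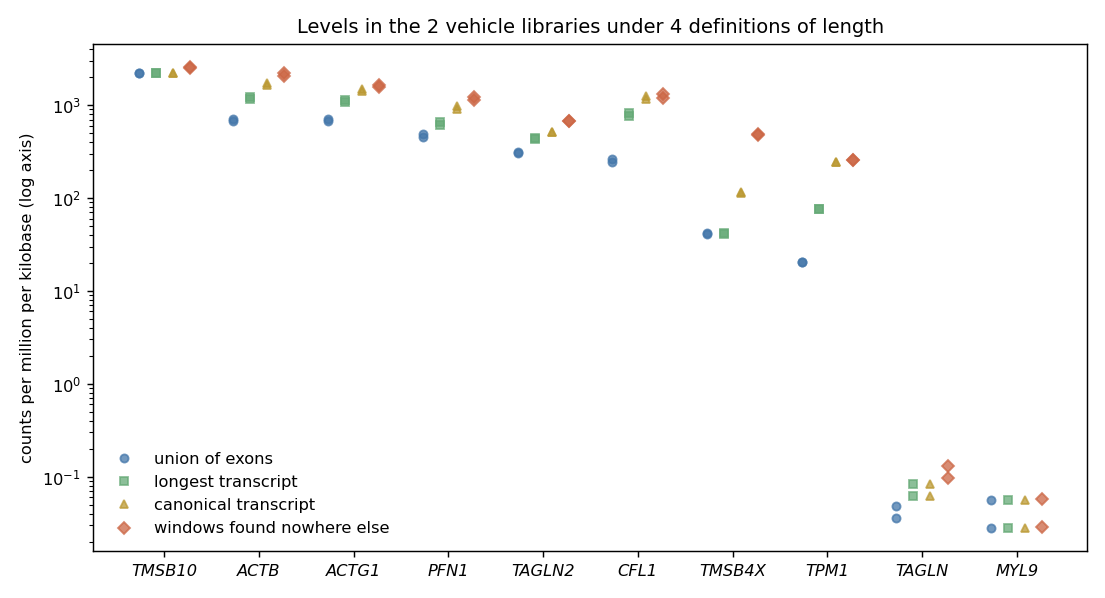
Level in CPM per kilobase (log axis) of the 10 members in the 2 vehicle libraries (points), with 4 definitions of length as colors and shapes. TMSB10 is highest under each definition, and TMSB4X moves from 41.5 (mean over all exons) to 484 when only windows found nowhere else are counted as length.

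With the canonical transcript as length, the order was TMSB10 (2223 on average), ACTB (1686), ACTG1 (1448), CFL1 (1199), PFN1 (933), TAGLN2 (509), TPM1 (246) and TMSB4X (114). When only windows found nowhere else counted as length, TMSB4X rose to 484 ± 8.77 (SD, n = 2) and passed TPM1 (255.9 ± 0.0893), while TMSB10 stayed first at 2549 ± 31.4. Under this length CFL1 and PFN1 no longer separated. The ranks of TMSB4X, CFL1, PFN1, TAGLN2 and TPM1 therefore depend on the length used, and that of TMSB10 did not in the 4 definitions. Among the 8 tested members, 7 had a mean level above that of 95% of tested genes, per library and not per length, and TMSB4X lay above 70.0%.

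EC359 was then compared with vehicle. TMSB10, on chromosome 2 of GRCh37 from 85132780 to 85133795, had 29165 and 28661 normalized counts with vehicle and 22137 and 22979 with EC359. Both EC359 libraries lay below both vehicle libraries. The means were 28913 ± 356 and 22558 ± 595 (SD, n = 2 each), which is 0.780 of the vehicle level (log2 fold change -0.36, standard error 0.031). As a share of all reads counted on genes, TMSB10 took 0.102% and 0.101% with vehicle and 0.0789% and 0.0823% with EC359. In the order of all 12706 tested genes from the most reduced upward, it held place 336. Among the 484 tested genes with at least 10000 normalized counts with vehicle, 3 had a lower log2 fold change, and the median of these abundant genes was -0.043.

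The other thymosins did not follow one direction. TMSB4X, on chromosome X from 12993229 to 12995346, had 2019 and 1968 normalized counts with vehicle and 1799 and 1801 with EC359, a log2 fold change of -0.15 (standard error 0.047). It was not called. Within each library the ratio of TMSB10 to TMSB4X counts was 14.4 and 14.6 with vehicle and 12.3 and 12.8 with EC359, so the ratio of these genes was lower by 0.21 on the log2 scale with EC359. TMSB15A had only 14.4 and 12.2 normalized counts with vehicle and 32.7 and 29.9 with EC359. Its log2 fold change of 1.22 (standard error 0.31) was not called (edgeR quasi-likelihood, adjusted p = 0.0559). TMSB15B had 94.5 and 109 with vehicle and 104 and 101 with EC359, and these libraries overlapped. The coding sequences of TMSB15A and TMSB15B are 98.5% identical, with 49 identical windows of 50 bases. In the unspliced genome 39 windows (6.67%) of the TMSB15A transcript have a second place, since windows across exon junctions find no match there.

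**Figure D2:**
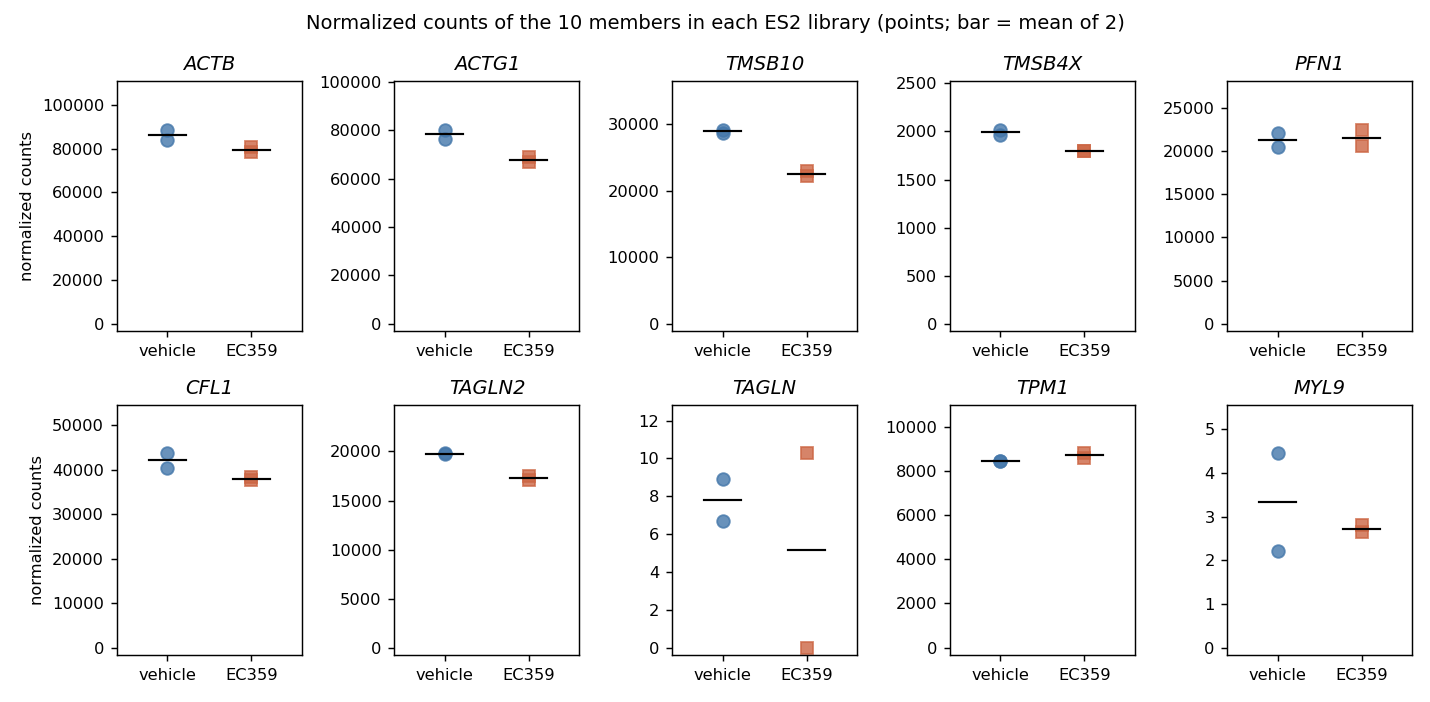
Normalized counts of each member (vertical axes from 0, one scale per gene) in the 2 vehicle libraries (circles) and the 2 EC359 libraries (squares), with the mean as a bar. The EC359 squares lie below the vehicle circles for TMSB10, TMSB4X, ACTB, ACTG1, CFL1 and TAGLN2, above them for TPM1, and overlap them for PFN1, TAGLN and MYL9.

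Both cytoplasmic actins had lower means with EC359. ACTG1, on chromosome 17 from 79476439 to 79490873, had 76531 and 80211 normalized counts with vehicle and 66706 and 68892 with EC359 (log2 fold change -0.21, standard error 0.032). ACTB, on chromosome 7 from 5566040 to 5603533, had 83725 and 88624 with vehicle and 78202 and 80689.6 with EC359 (log2 fold change -0.12, standard error 0.033). Neither gene's treatments overlapped, but only ACTG1 was called. The ratio of ACTB to ACTG1 counts in a library was 1.09 and 1.10 with vehicle and 1.17 in both EC359 libraries. Muscle actins were nearly absent. ACTA2, the smooth muscle actin, had 26.7 and 20.03 normalized counts with vehicle and 23.9 and 27.1 with EC359, while ACTA1, ACTC1 and ACTG2 had 7, 4 and 4 reads summed over the 4 libraries.

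The monomer and filament regulators differed. PFN1, on chromosome 17 from 4848947 to 4852356, had 20454 and 22032 normalized counts with vehicle and 20520.5 and 22462 with EC359. Its libraries overlapped, and the log2 fold change was 0.017 with a standard error of 0.047. The sign of this value turned without vehicle replicate 1 (-0.035) and without EC359 replicate 2 (-0.050). CFL1, on chromosome 11 from 65590493 to 65629497, had 40498 and 43730 with vehicle and 37767 and 38289 with EC359 (log2 fold change -0.15, standard error 0.037) and was not called. As a ratio to ACTB in the same library, TMSB10 went from 0.348 and 0.323 to 0.283 and 0.285, PFN1 from 0.244 and 0.249 to 0.262 and 0.278, and CFL1 from 0.484 and 0.493 to 0.483 and 0.475. The ratio was lower with EC359 for TMSB10, higher for PFN1, and for CFL1 it was lower by 0.029 on the log2 scale.

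Among genes that act along filaments, TAGLN2 and TPM1 were abundant, while TAGLN and MYL9 had only a few reads. TAGLN2, on chromosome 1 from 159887897 to 159895297, had 19712 and 19814 normalized counts with vehicle and 17110.0 and 17543 with EC359 (log2 fold change -0.19, standard error 0.030). TAGLN, the smooth muscle transgelin on chromosome 11 from 117070086 to 117078180, had 8 and 6 raw counts with vehicle and 0 and 11 with EC359. The count of 0 allows a share of up to 9.46e-06% of that library's reads. TPM1, on chromosome 15 from 63334819 to 63364114, had 8429 and 8433 normalized counts with vehicle and 8800 and 8605 with EC359, with a log2 fold change of 0.046 (standard error 0.032) and no call. MYL9, on chromosome 20 from 35169900 to 35179850, had 2 and 4 raw counts with vehicle and 3 in each EC359 library. At this depth no difference could be detected for TAGLN or MYL9. For TAGLN, 59.0% of the transcript overlaps exons of PCSK7 on the other strand. Overlaps with exons on the other strand cover 13.8% of PFN1 (ENO3) and 9.16% of CFL1 (SNX32).

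In counts, 3 of the 8 tested members (TMSB10, ACTG1 and TAGLN2) passed the adjusted threshold of 0.01 in the quasi-likelihood test of edgeR, all lower with EC359, and 0 were called higher. Over all tested genes 1.09% were called, 0.795% as lower and 0.299% as higher. Most tested members are abundant, and calls were more frequent among abundant genes. Of the 484 tested genes with at least 10000 normalized counts with vehicle, 39 were called lower and 6 higher. The members were picked around a gene that fell in this same comparison, so their count is not evidence for the set. With DESeq2, edgeR's exact test and limma voom the same 3 members were called lower and 0 higher. Without adjustment, at p under 0.05, 6 members lay lower and 0 higher, against 21.6% of all tested genes in either direction. The treatments did not overlap for 7 of the 8, against 51.5% of all tested genes. The median log2 fold change was -0.15 over the 8 tested members and 0.0029 over all tested genes. Without EC359 replicate 1, and likewise without EC359 replicate 2, 0 members were called, with 3 and 5 lower at an unadjusted p under 0.05, and over all genes 0 and 2 were called. With total counts in place of TMM factors 1 member (TMSB10) was called, and the calls over all genes went from 38 higher and 101 lower to 52 higher and 68 lower.

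**Figure D3:**
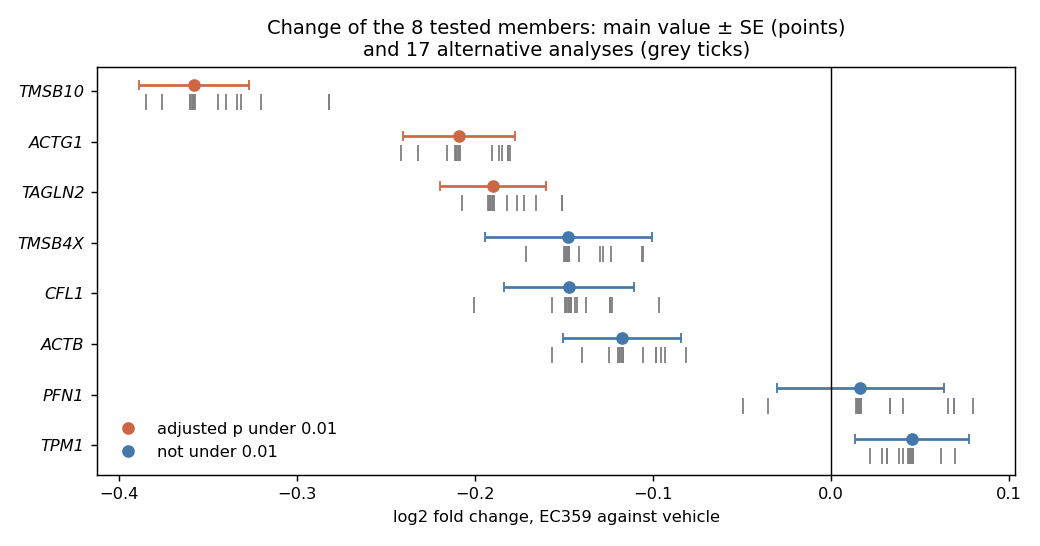
Log2 fold change of the 8 tested members with EC359 (point, bar = standard error, n = 2 libraries per treatment), with the values of 17 other analyses as grey ticks. The 6 members from TMSB10 to ACTB stay below 0 in each of them, TPM1 stays above 0, and PFN1 lies on both sides of 0.

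Across the 17 other analyses the log2 fold change of TMSB10 ran from -0.38 to -0.28, that of ACTG1 from -0.24 to -0.18 and that of TAGLN2 from -0.21 to -0.15. Those of CFL1, TMSB4X and ACTB ran from -0.20 to -0.096, from -0.17 to -0.11 and from -0.16 to -0.081. TPM1 ran from 0.022 to 0.070, and PFN1 from -0.050 to 0.080. PFN1 was called in 1 of the 17, higher, with a replicate block and length and GC trends removed (0.069).

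Transcript length moved with the change over all genes, and TMSB10 has the shortest transcript of the members. Its transcript has 461 bases, against 1173 to 3957 for the longest transcripts of the other tested members. The 434 tested genes with a longest transcript under 1000 bases had a median log2 fold change of -0.068, and 62.4% of them were lower with EC359. In the classes from 1000 to 2000, 2000 to 4000, 4000 to 8000 and over 8000 bases, the medians were -0.026, -0.0014, 0.016 and 0.017. Of the genes under 1000 bases, 47 had a log2 fold change at or below that of TMSB10, which is counted among them. With each library's trend against length removed, TMSB10 had -0.32, and with length and GC trends removed -0.28, and it was called in both. TAGLN2 was not called with the length trend removed (-0.18), while ACTG1 was (-0.22).

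**Figure D4:**
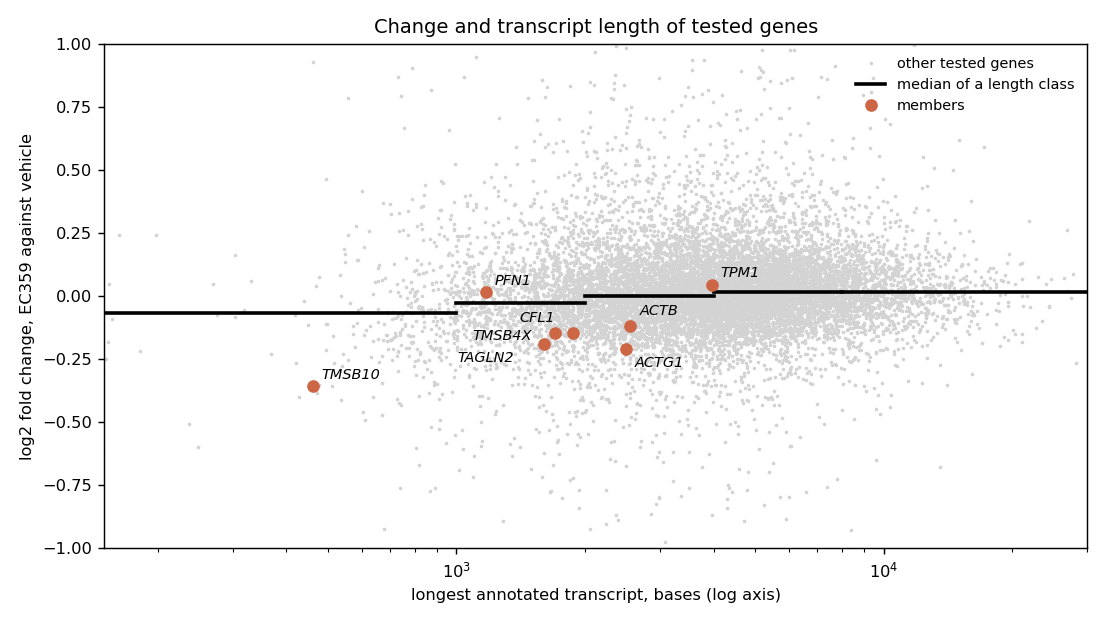
Log2 fold change with EC359 against the longest annotated transcript in bases (log axis) for 12185 tested genes with a length (grey), with members in orange and the median of each length class as a black line, and 46 genes outside the axes left out. The medians run from -0.068 under 1000 bases to 0.017 over 8000 bases, and TMSB10 lies below its class median.

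Genes outside the set were taken from 13 lists of actin biology. The lists were written from general knowledge and not by how the genes moved, but with earlier results of these data known. Without the members these held 165 genes, of which 134 were tested. By edgeR's quasi-likelihood test 2 of these genes (1.49%) were called, both lower with EC359, and 0 were called higher, against 1.09% of all tested genes. Without adjustment, at p under 0.05, 24 genes lay lower and 16 higher, against 1394 lower and 1356 higher over all tested genes. These were 29.85% of the 134 genes and 21.6% of all tested genes. DESeq2 gave an adjusted p to 106 of these genes and called 5 lower and 0 higher. Over all 6953 genes with such a p, it called 171 lower and 61 higher. With limma voom 2 were called lower and 0 higher, against 109 lower and 37 higher over all 12706 tested genes. By edgeR's exact test 7 were called lower and 1 higher, against 333 lower and 235 higher over all tested genes. The median log2 fold change of the 134 genes was -0.0048, with 63 higher and 71 lower. This balance turned with total counts only, to 76 higher and 58 lower in mean, a median of 0.019, and 29 higher and 16 lower at an unadjusted p under 0.05. Without EC359 replicate 1 or without EC359 replicate 2, 0 of these genes were called by edgeR's quasi-likelihood test, with 14 lower and 5 higher, and 11 lower and 7 higher, at an unadjusted p under 0.05.

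MYL6, the essential light chain of nonmuscle myosin II, fell from 9128 and 8956 normalized counts to 7912 and 7687 (log2 fold change -0.21, standard error 0.033; edgeR quasi-likelihood, adjusted p = 0.00776). ILK, the integrin-linked kinase at sites of adhesion, fell from 4177 and 4424 to 3424 and 3443 (log2 fold change -0.32, standard error 0.041, adjusted p = 0.00327). For ILK, 86.9% of the transcript overlaps annotated exons of TAF10 on the other strand. The strand setting of the counting is not given in the sources used here, so how reads from this overlap were counted is not known. TAF10 itself had a log2 fold change of -0.22 (adjusted p = 0.116). In the other analyses the adjusted p of ILK ran up to 0.282 and that of MYL6 up to 0.320, both reached without EC359 replicate 1. MYL6B, a neighbour that overlaps 12.6% of the MYL6 transcript on the same strand, had -0.28 (adjusted p = 0.0138) and was not called. Of the 16 tested myosin II genes other than MYL9, 10 were lower and 6 higher (9 and 7 with total counts only), and 1 was called.

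**Figure D5:**
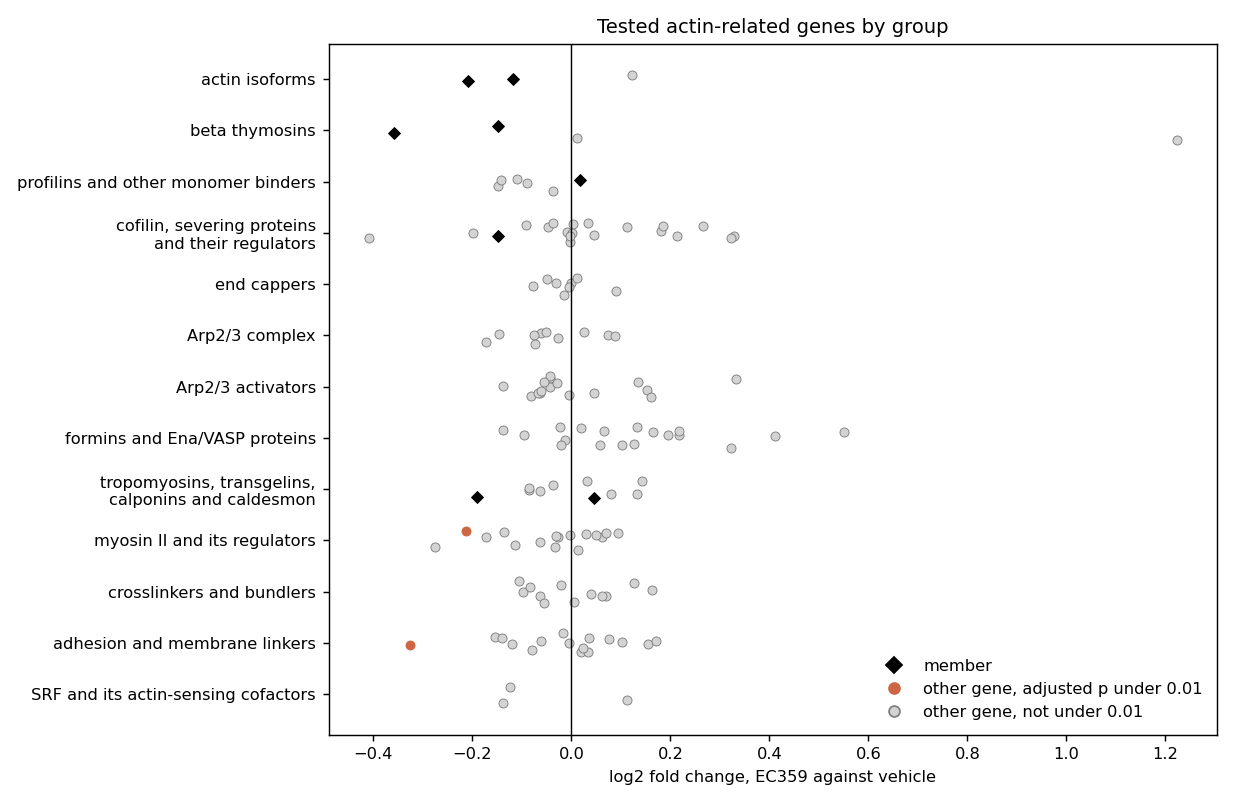
Log2 fold change with EC359 of tested genes in 13 actin-related lists (rows), with members as black diamonds, other called genes in orange and the rest in grey. Outside the members, 2 genes (MYL6 and ILK) are called, both below 0, and most lists lie on both sides of 0.

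The remaining monomer binders PFN2, CAP1, CAP2, TWF1 and TWF2 were all lower in mean, none called. Of 5 tested genes, 3 were lower at an unadjusted p under 0.05. PFN2, a second profilin, had 8975 and 8934 normalized counts with vehicle and 8127 and 8032 with EC359 (log2 fold change -0.15, edgeR quasi-likelihood, adjusted p = 0.0286). In the Arp2/3 complex, which starts branches on filaments, 7 of 10 tested subunits were lower in mean, and ARPC3 (-0.17) and ARPC2 (-0.15) had the lowest p, with adjusted values of 0.0572 and 0.0442. Its activators had 11 of 16 lower in mean (10 of 16 with total counts only), with -0.14 for BRK1 and 0.15 for WASL. Formins and Ena/VASP proteins, which build unbranched filaments, had 13 of 18 higher in mean, with 6 higher and 2 lower at an unadjusted p under 0.05. Over all tested genes 51.0% were higher in mean and 21.6% had such a p in either direction, and with total counts only the formin list had 16 of 18 higher, with 8 higher and 0 lower at that p. FMN1 (0.17) and FMN2 (0.41) had the lowest p of that list, with adjusted values of 0.0556 and 0.0848. By edgeR's quasi-likelihood test 0 genes of these lists were called.

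In the other lists the directions were mixed. Tropomyosins TPM2, TPM3 and TPM4 had log2 fold changes of 0.032, -0.063 and -0.086 (edgeR quasi-likelihood, adjusted p = 0.902, 0.318 and 0.140), none called, and TPM2 turned in sign without vehicle replicate 1 (-0.068). CNN2, a calponin, had 0.14 (adjusted p = 0.117). Among severing proteins and their regulators, 11 of 19 were higher in mean (14 of 19 with total counts only), with LIMK2, a kinase that inactivates cofilin, at 0.27 (adjusted p = 0.0750) and SVIL at -0.20 (adjusted p = 0.0944). End cappers had a median of -0.0098 (0.014 with total counts only), with CAPZB at -0.078 and EPS8 at 0.090. Crosslinkers had a median of -0.0072 (0.017 with total counts only), with PLS3 at -0.097. Of adhesion and membrane linkers, 8 were lower and 8 higher (6 and 10 with total counts only), and MSN, which joins filaments to the membrane, had -0.14 (adjusted p = 0.0244).

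SRF and its cofactors were looked at because monomeric actin binds the MRTFs. SRF had 2651 and 2692 normalized counts with vehicle and 2346 and 2507 with EC359 (log2 fold change -0.14, standard error 0.047; edgeR quasi-likelihood, adjusted p = 0.120). MKL1 and MKL2, now named MRTFA and MRTFB, had 0.11 and -0.12 (adjusted p = 0.445 and 0.295), and MYOCD, a related cofactor, had 0 reads in all libraries. The CArG box, the motif that SRF binds, was searched in RefSeq promoters of build GRCh38.p14, from 250 bases before the start of a gene to 50 after it, and both strands were covered because the motif reads the same on each. It occurs in 1.29% of 35116 promoters, and promoters of 7 members were among those available. ACTB, TAGLN and MYL9 had no promoter there and were not searched. Of these 7, ACTG1 held a CArG box, 94 bases before its start. The stretch around it is shown with the motif in capitals, since ACTG1 is a member called lower. It lies at chr17:81512869-81512908 of GRCh38.p14 on the minus strand.
ACTG1 promoter stretch: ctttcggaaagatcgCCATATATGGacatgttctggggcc
TMSB10, TMSB4X, PFN1, CFL1, TAGLN2 and TPM1 had no match to these letters in this window.

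The genes whose pattern over the 4 libraries was most like that of TMSB10 were S100A2, SWT1, PDXDC2P, ANXA2P1 and SUMF2, by the distance between log2 CPM values centred on each gene's mean. Their distances ran from 0.0213 for S100A2 to 0.0445 for SUMF2, and their log2 fold changes from -0.39 for ANXA2P1 to -0.32 for SUMF2. S100A2 had 227 and 221 normalized counts with vehicle and 170 and 175 with EC359. The likeness is over 4 libraries of 2 treatments, in which any gene with a like change and little spread comes near.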

How the data were processed

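RNA-seq libraries of ES2 cells, 2 per treatment, were made with a stranded mRNA kit and read as single ends of 50 bases. Per the labels and methods, the authors aligned reads to hg19 with TopHat2 2.0.8b and ran HTSeq on RefSeq genes. What they deposited were raw counts for each gene symbol. Rows that name no gene stayed out of library sizes and tests. Of the reads counted on genes, on no feature or as ambiguous, 10.9% to 12.05% were on no feature and 0.852% to 0.879% ambiguous. The row of alignments that were not unique held 15051182 to 18703790 per library and is not part of these shares. Depth was 25572494 to 31707553 counts, and floors cover counting error only.

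Genes were filtered with filterByExpr (minimum count 10, total 15), scaled with TMM factors and tested with the quasi-likelihood test of edgeR 4.0.16 in R 4.3.3, with Benjamini-Hochberg adjustment over 12706 genes and a threshold of 0.01. Standard errors were obtained as the absolute log2 fold change over the root of F. The paper calls the RNA-seq samples biologically independent, while the labels do not say that libraries came from separate cultures. The p-values measure only the spread between these samples. Alternatives used DESeq2 1.42.0 and limma 3.58.1, and the code was tested on simulated data. Places, lengths and GC came from GENCODE on GRCh37 (91.8% of symbols matched). Windows were matched exactly on both strands of the unspliced genome. A window across an exon junction could not match the spliced sequence of another gene, so shares found elsewhere can be too low.

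The members and lists were chosen with earlier results of these data known. Named genes were the members, all actins, beta thymosins, tropomyosins, SRF and its cofactors, called genes and the 2 lowest p of each list, the 5 genes nearest to TMSB10, and genes that share sequence with a member. CAP2, TWF1, TWF2 and TAF10 were named after their values were seen. A gene that this rule names among the crosslinkers is not reported here.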

Additional observations from a re-analysis of the deposited data

How the results depend on the processing

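With the threshold on adjusted p, 139 of all tested genes were called, 3 members and 2 genes of the wider lists. The members called numbered 1 with total counts only, 1 with no filter, 5 with the GC trend removed, 5 with length and GC trends removed and 5 at an unadjusted p under 0.01. The wider genes called numbered 1 with total counts only, 1 with no filter, 1 with the length trend removed, 5 with DESeq2, 8 with the edgeR exact test, 8 at an adjusted p under 0.05, 19 at an unadjusted p under 0.01, 21 with the GC trend removed and 23 with both trends removed. All genes called numbered 61 with no filter, 232 with DESeq2, 549 at an adjusted p under 0.05, 568 with the exact test, 1052 with the GC trend removed, 1062 with both trends removed and 1255 at an unadjusted p under 0.01. The cause was not tested. Leaving out each library in turn gave 0 to 539 of all genes, 0 to 5 members and 0 to 11 wider genes, and the lone library of an arm was then assumed to vary like the other arm. The lowest counts came without an EC359 library. Among the named genes that were run singly under 17 alternatives, TMSB10, ACTG1, TAGLN2, MYL6 and ILK kept their sign in each. PFN1, called in 1 alternative only, kept its sign in 15 of the 17.

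The labels number the replicates in both treatments but do not say that a number marks a shared batch, and deviations of same-numbered libraries correlated at 0.112 over genes, so a pairing was not assumed. With a replicate block, 1539 genes, 5 members (all lower) and 28 wider genes (10 higher, 18 lower) were called. With the block and both trends removed these were 2060 genes, 6 members (5 lower, and PFN1 higher) and 44 wider genes (10 higher, 34 lower).

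The 4 definitions of length included 2 chosen after seeing the data, the canonical transcript and the windows found nowhere else. With 2 libraries per treatment an exact permutation test of a single gene cannot go below p = 0.333. The depth does not resolve TAGLN or MYL9, and the strand setting is not given in the sources used here. The paper calls the 2 samples per treatment biologically independent, and the labels do not say that they were separate cultures.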
